A study of Mus musculus with 6 samples.

Results

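The genes described here encode the proteins of the cytosolic ribosome, together with the paralogues Rpl3l, Rps4l, Rpl22l1 and Rps27l. They were chosen by symbol, as every gene whose name begins with Rpl or Rps and a digit, or with Rplp, leaving out the Rps6k kinases and symbols that contain -ps. Of 18193 genes measured through probe sets of a single gene, 49 met the rule. They comprise 22 core proteins of the large subunit, 20 core proteins of the small subunit, the 4 paralogues and 3 others, namely Rpl39l, Rpl7l1 and Rps19bp1. Rps19bp1 binds a ribosomal protein and is no subunit itself, and RefSeq annotates Rps4l as a transcribed pseudogene, so the label of the set holds for its core and less well for these genes. A further 31 genes that meet the rule by symbol, Rpl3 and Rpl10 among them, were found only on probe sets that the annotation also gives to other genes, and they are not analysed one by one.

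RNA came from inguinal white fat, the subcutaneous fat of the groin, of 3 wild-type (WT) and 3 Naa10-KO male mice, with 1 array for each mouse. Both genotypes ate a high-fat diet, in which fat supplied 60% of the calories, over 15 weeks starting at 6 weeks of age. They were then exposed to cold, 4 °C over 4 h, and the tissue was collected. The labels do not say in which cells Naa10 was deleted, and Naa10 is not analysed here, so the genotype was not checked against its transcript. Biotin-labelled RNA was hybridised to the Affymetrix Mouse Genome 430 2.0 array, which reports each probe set as a signal, given here on the log2 scale. A difference is Naa10-KO minus WT on that scale, and each is given with the moderated standard error (SE) of limma, a linear model fitted to all genes. A gene was called when its p-value, adjusted over all 18193 genes by Benjamini-Hochberg, lay below 0.05.

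The ribosome is built from ribosomal RNA and a nearly fixed set of proteins that are needed in equal amounts. Their messenger RNAs are short and abundant, and most begin with a 5′ terminal oligopyrimidine (TOP) tract, a C followed by a run of pyrimidines, through which mTORC1 and Larp1 control their translation. A few subunits have paralogues that replace or accompany them in particular tissues. Rpl3l takes the place of Rpl3 near the peptidyl transferase centre in skeletal muscle and heart, Rpl22l1 is a relative of Rpl22, and Rps27l, a target of p53, is a relative of Rps27. Naa10 is the catalytic subunit of NatA, an enzyme that sits at the exit of the ribosomal tunnel and acetylates nascent chains.

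The start regions of the genes were taken from RefSeq (GRCm38.p6) to show where a pyrimidine run lies near the start. Each stretch below runs from 20 bases before the annotated start to the 20 bases that begin with it, and capitals mark a C followed by 4 pyrimidines that lies within 15 bases of the start. Shown are the paralogues with an entry and the 5 core subunits with the smallest unadjusted p that have one. Rpl3l and Rps27l each have a second annotated start, not shown, near which no such run was found.
Rpl3l (chr17:24727806-24727845, + strand): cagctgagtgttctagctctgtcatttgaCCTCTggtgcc
Rpl22l1 (chr3:28805488-28805527, + strand): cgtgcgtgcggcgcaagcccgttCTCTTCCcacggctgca
Rps27l (chr9:66946066-66946105, + strand): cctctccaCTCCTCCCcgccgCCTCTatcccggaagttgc
Rps6 (chr4:86857348-86857387, - strand): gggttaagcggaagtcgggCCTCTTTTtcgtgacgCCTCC
Rps18 (chr17:33955646-33955685, - strand): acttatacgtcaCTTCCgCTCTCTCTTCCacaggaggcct
Rps7 (chr12:28635934-28635973, - strand): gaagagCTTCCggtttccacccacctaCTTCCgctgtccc
Rps15 (chr10:80292411-80292450, + strand): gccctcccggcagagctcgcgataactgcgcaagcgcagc
Rps3a1 (chr3:86142649-86142688, - strand): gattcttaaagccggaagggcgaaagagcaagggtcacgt
Of the 42 core genes, 37 had a promoter sequence. Read in the direction of transcription, 27 of them (73.0%) held such a run near a start, against 44.9% of the 27025 genes in the table. Annotated starts can lie some bases from the true one, so a missing run says only that these letters are not in this window.

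Whole promoter windows, from 250 bases before the start to 50 after it, are shown for Rpl3l and for the core subunit Rps18. Capitals mark the letters CANNTG (the E-box, the site of basic helix-loop-helix factors such as MyoD) and CCGGAAG (the core of ETS family sites) on either strand.
Rpl3l (chr17:24727576-24727875, + strand): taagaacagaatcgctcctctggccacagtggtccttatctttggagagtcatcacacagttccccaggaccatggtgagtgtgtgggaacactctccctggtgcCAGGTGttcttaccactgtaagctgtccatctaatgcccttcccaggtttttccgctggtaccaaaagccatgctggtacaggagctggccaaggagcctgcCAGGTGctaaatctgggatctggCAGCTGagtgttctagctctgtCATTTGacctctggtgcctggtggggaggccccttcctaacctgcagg
Rps18 (chr17:33955616-33955915, - strand): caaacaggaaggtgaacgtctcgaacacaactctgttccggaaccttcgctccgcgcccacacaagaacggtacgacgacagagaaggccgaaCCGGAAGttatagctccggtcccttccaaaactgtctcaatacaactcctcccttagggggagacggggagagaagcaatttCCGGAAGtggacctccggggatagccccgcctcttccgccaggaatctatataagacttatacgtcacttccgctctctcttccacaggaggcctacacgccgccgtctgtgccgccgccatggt
The Rpl3l window held 4 matches to CANNTG and 0 to CCGGAAG, and the Rps18 window held 0 and 2. Among core genes 48.6% held CCGGAAG, against 9.93% of all genes, and 56.8% held CANNTG, against 74.99%. GGGCGG, the GC box, was found in 56.8% of core genes and 38.2% of all genes, and TATAAA in 13.5% and 15.7%. The MEF2 motif was found in 0 of 37 core genes and in 2.16% of all genes. It was absent from the Rpl3l window shown and present once in the window of a second annotated start of Rpl3l. These matches describe sequence and were not tested as binding sites.

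The core proteins of the ribosome had for the most part slightly higher means in Naa10-KO than in WT fat, and none of the 42 was called. Their median difference was 0.22, a 1.16-fold level, and the means of 40 were higher in Naa10-KO. Over all genes the median difference was 0.01, and 51.4% of means were higher in Naa10-KO. Of all 49 members 1 was called higher, against 0.0879% of all genes, and 0 were called lower, against 0.0275%. The member called higher was Rpl3l. At an unadjusted p under 0.05, limma gave 2 members, Rpl3l (higher) and Rps4l (lower), against 4.85% of all genes higher and 4.35% lower.

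**Figure D1:**
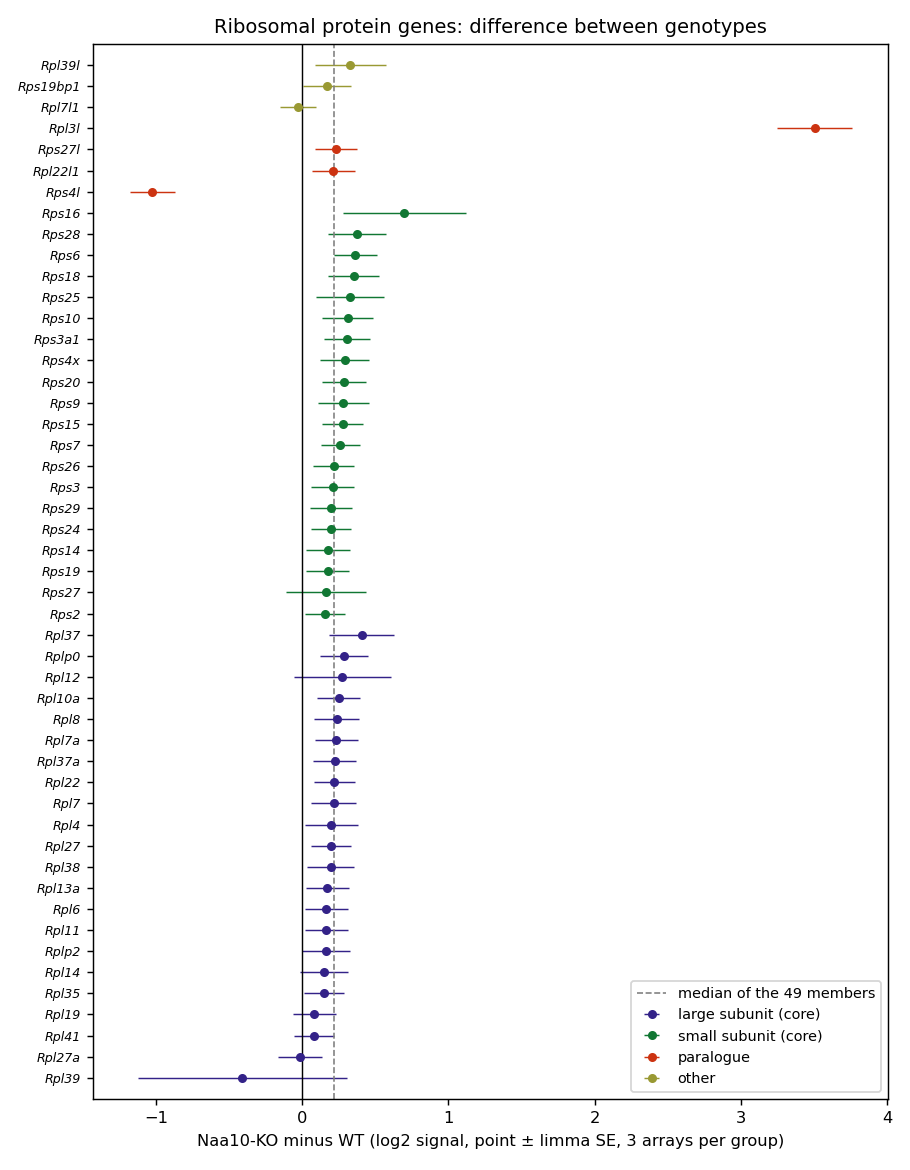
Difference between genotypes (Naa10-KO minus WT, log2 signal) for each of the 49 genes, with limma's SE as the bar. The dashed line is the median of the members, 0.22; most core subunits sit close to it, while Rpl3l lies at 3.50 and Rps4l at -1.02.

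The 20 small subunit proteins were all higher in mean, with a median of 0.28 and a range of 0.16 to 0.70. Rps6, the small subunit protein that S6 kinase phosphorylates, had the smallest p of the core. Its WT arrays read 10.68, 10.65 and 10.85 and its Naa10-KO arrays 11.22, 11.11 and 10.94. All 3 Naa10-KO values lay above the WT values (difference 0.36, SE 0.15, adjusted p = 0.546). A second Rps6 probe set of lower signal, with a mean of 6.56, differed the other way, by -0.31 (SE 0.20, from a fit of all probe sets).

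Rps18, a protein of the head of the small subunit, read 14.76, 14.59 and 14.92 in WT and 15.31, 15.04 and 14.97 in Naa10-KO. The groups did not overlap, but the lowest Naa10-KO array stood only just above the highest WT array (difference 0.35, SE 0.17). Rps7, whose mutation causes Diamond-Blackfan anaemia in humans, read 14.83, 14.76 and 14.92 in WT and 15.14, 15.03 and 15.13 in Naa10-KO (difference 0.26, SE 0.13). Rps15, a protein of the subunit's head, differed by 0.28 (SE 0.14), Rps3a1 by 0.30 (SE 0.16) and Rps20 by 0.29 (SE 0.15), each without overlap. In limma these 5 genes had adjusted p-values from 0.595 (Rps18) to 0.607 (Rps20).

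Rps28 had a difference that varied with the arrays included. It read 14.93, 14.70 and 15.29 in WT and 15.46, 15.32 and 15.25 in Naa10-KO. WT replicate 3 thus stood above Naa10-KO replicate 3, and the groups overlapped (difference 0.37, SE 0.20, adjusted p = 0.609). The difference was 0.53 without WT replicate 3 and 0.24 without WT replicate 2. Rps2 and Rps3, which line the entry of the mRNA channel, differed by 0.16 (SE 0.14) and 0.21 (SE 0.15). Rps16 had the largest difference of the small subunit, 0.70 (SE 0.42). Its probe set read between -0.37 and 1.18, so it stayed on all 6 arrays under 5.86, the overall probe set median, which serves here as a mark for low signal.

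The 22 large subunit proteins had a median difference of 0.20 and a range of -0.41 to 0.41. Of the proteins of the stalk that recruits translation factors, Rplp0 differed by 0.29 (SE 0.16), Rplp2 by 0.16 (SE 0.16) and Rpl12, at the stalk base, by 0.27 (SE 0.33). Rplp0 read 14.47, 14.43 and 14.66 in WT and 14.88, 14.60 and 14.94 in Naa10-KO, with Naa10-KO replicate 2 inside the WT range. Rpl11, which joins the 5S RNA particle and can bind Mdm2, differed by 0.17 (SE 0.15). Rpl22, Rpl35, Rpl19 and Rpl39, which surround the exit tunnel where NatA docks, differed by 0.22 (SE 0.14), 0.15 (SE 0.14), 0.08 (SE 0.15) and -0.41 (SE 0.71). Rpl39 read 7.25, 6.49 and 7.50 in WT and 5.16, 7.34 and 7.51 in Naa10-KO. Its lower mean came from Naa10-KO replicate 1 alone, and without that array the difference was 0.35.

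Rpl27a was the other core gene with a lower mean, at -0.02 (SE 0.15), and its sign changed in several alternatives. Rpl41, the smallest ribosomal protein, and Rpl19 were close to 0 at 0.08 each, and both turned slightly negative after quantile normalization (-0.04 and -0.03). Rpl37 had the largest difference of the large subunit, 0.41 (SE 0.22), and its highest array, Naa10-KO replicate 3 at 11.63, stood apart from Naa10-KO replicate 2 at 10.90. The latter lay within the WT range of 10.74 to 10.93.

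Most core subunits varied together from array to array, and the genotypes were close at their nearest arrays. Relative to each gene's own mean over the 6 arrays, the core median was -0.11 (WT replicate 1), -0.22 (WT replicate 2) and -0.00039 (WT replicate 3) in WT. In Naa10-KO it was 0.22 (replicate 1), 0.08 (replicate 2) and 0.02 (replicate 3). By these medians, the nearest arrays of the genotypes were WT replicate 3 and Naa10-KO replicate 3. WT replicate 2 held the lowest value of 34 of the 42 core genes, and Naa10-KO replicate 1 held the highest value of 32. Among 204 other genes with a mean of at least 14, WT replicate 2 was lowest in 97 and Naa10-KO replicate 1 highest in 67. Over all 18193 genes these counts were 2967 and 3668, so other bright genes shared part of this pattern. Pairwise Pearson correlations over the 6 arrays were taken among the 32 core genes with a mean signal of at least 14. Their median was 0.88 (range 0.00514 to 0.998). Once the genotype means were removed it was 0.80 (range -0.613 to 0.996). The points of these correlations share the same arrays, RNA and scaling. Members are thus no independent replicates of a shift.

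**Figure D2:**
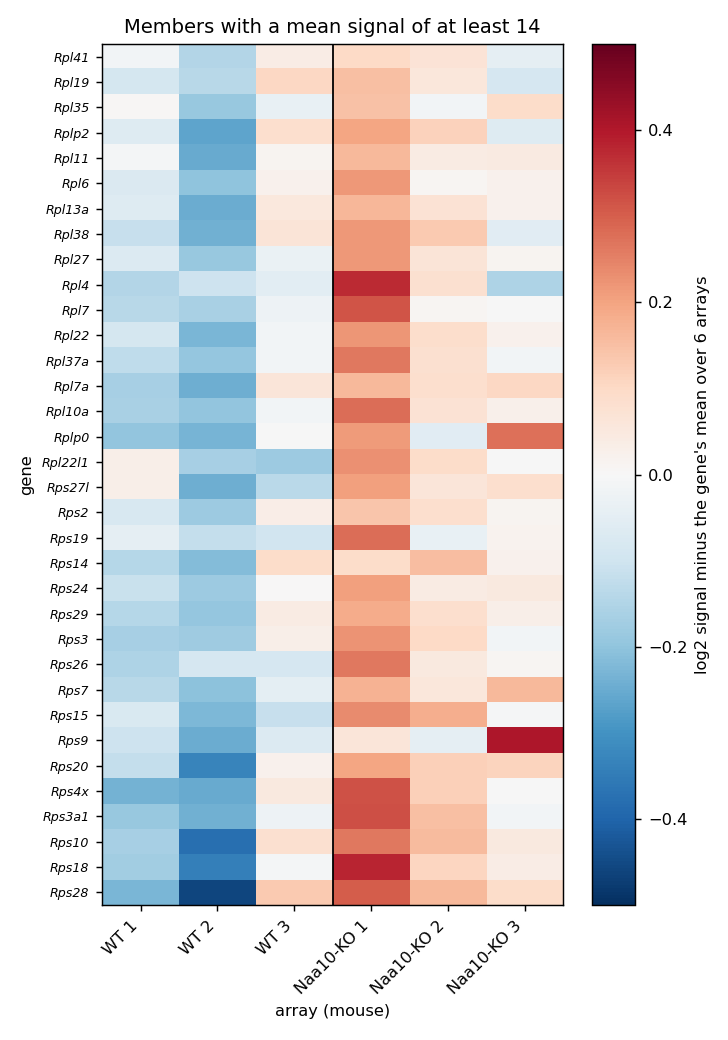
Log2 signal of the 34 members with a mean of at least 14, each relative to its own mean over the 6 arrays; columns are arrays, rows are genes, grouped by large subunit, paralogue and small subunit. WT replicate 2 is the lowest array in 31 of the 34 rows and Naa10-KO replicate 1 the highest in 31. Among 204 other genes of that mean signal, not drawn, these arrays were the lowest in 97 and the highest in 67.

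The genotypes did not overlap, with Naa10-KO higher, in 19 of the 49 members (38.8%), against 10.0% of all genes. With Naa10-KO lower this held for 1 member, Rps4l, against 8.14% of all genes. Of the 19, 11 were small subunit genes, 6 were large subunit genes, and the others were Rpl3l and Rps27l. Among 204 other genes whose mean signal was also at least 14, the groups did not overlap upward in 18.1%, 61.8% of means were higher in Naa10-KO and the median difference was 0.05. The 34 members in that range had a median of 0.21, with differences from 0.08 to 0.37, and 16 of them did not overlap upward. Leaving out WT replicate 3 or Naa10-KO replicate 3 raised the count of 19 to 34 members, against 17.1% and 16.7% of all genes. Without Naa10-KO replicate 1 it was 19 members, against 14.3%.

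The difference was small and varied with the arrays included. Over the 6 fits that each left out 1 array, the median of the members lay between 0.16 (without Naa10-KO replicate 1) and 0.27 (without WT replicate 3). It was 0.13 after quantile normalization, where 43 of 49 means stayed higher. SEs of the 32 core genes of high signal lay between 0.13 and 0.20, close to the differences themselves. The array carries control probe sets at both ends of the Gapdh and beta-actin transcripts. For Gapdh the 3′ signal exceeded the 5′ signal by 0.55 (log2) on Naa10-KO replicate 1, where the members were highest. The same difference was -0.27 to 0.01 on the other arrays. For beta-actin it was 2.07 on Naa10-KO replicate 1 and 1.42 to 1.85 on the other arrays, so a 3′ excess was present on each. The part of this in the members' values was not tested. In bulk tissue, fewer cells of a type and less RNA per cell cannot be told apart.

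Other bright probe sets of the same genes gave differences of the same sign. The 49 genes had 104 probe sets, and 28 of the 55 that were not used had a mean of at least 14. All 28, from 17 genes, were higher in Naa10-KO, with a median of 0.19 and a range of 0.07 to 0.38. Of 204 genes outside the rule with a mean of at least 14, 61.8% had higher means in Naa10-KO. Rps10, with 5 probe sets above 14, differed by 0.25 to 0.38 on each of them. Of the 27 others, 16 were higher, with a range of -0.70 to 1.29. Some gave values close to the bright probe set, such as those of Rpl27 at 0.21 and 0.22 beside 0.20. Others did not. Rpl41 differed by 0.08 and 0.07 on its bright probe sets, and by 0.71 and -0.58 on its dim ones. Rps24, a small subunit protein, differed by 0.11 to 0.20 on its bright probe sets and by 1.18 and -0.60 on the dim ones. Probe sets shared between a ribosomal protein gene and other genes, 110 in all, had a median of 0.24. Of them 104 were higher in Naa10-KO, beside 51.4% of means over all genes. All these probe sets read the same RNA on the same arrays and scaling, so they are no independent replicates.

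**Figure D3:**
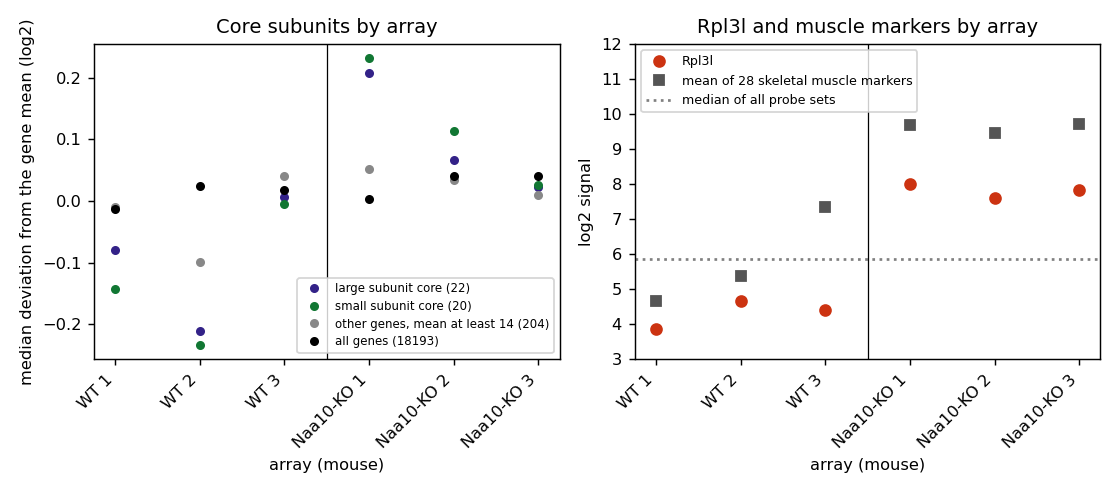
Left, the median deviation from each gene's own mean (log2) on each array for large and small subunit core genes, for 204 other genes with a mean of at least 14 and for all genes. Right, log2 signal of Rpl3l and the mean of 28 skeletal muscle markers on each array. The dotted line is the median of all probe sets, 5.86, and Rpl3l lies below it on every WT array.

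Rpl3l, the muscle and heart form of Rpl3, was the one member called. It read 3.85, 4.65 and 4.39 in WT and 7.99, 7.60 and 7.82 in Naa10-KO. The WT arrays all lay below the low-signal mark and the Naa10-KO arrays all above it, and no array came near the other group. The difference was 3.50 (SE 0.26, adjusted p = 0.0409), a fold of 11.4 that rests on low WT signals. With low values raised to the mark it was 1.94 and still called, as were 0.784% of genes upward in that fit. It was also called with limma's trend and robust options, where 0.561% of genes were called higher. With those options 19 members, 18 of them higher, had an unadjusted p under 0.05, against 6.57% of all genes upward. The call was lost without any 1 of the 6 arrays (adjusted p from 0.0647 to 0.180), while the difference stayed between 3.28 and 3.68. Rpl3l has 1 probe set on the array, and its parent Rpl3 was not analysed.

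Markers of skeletal muscle also stood higher on the Naa10-KO arrays. Of 28 markers Pvalb alone was called, and 25 had higher means in Naa10-KO, against 51.4% of all genes. In 22 of the markers the groups did not overlap, with Naa10-KO higher, against 10.0% of all genes. Their summed log2 signal was 130.4 to 205.7 in WT and 264.6 to 272.3 in Naa10-KO, and the number above the low-signal mark was 8 to 21 in WT and 23 to 25 in Naa10-KO. The slow-fibre markers Myh7, Tnni1 and Tnnt1 lay below the mark on all 6 arrays, and Tnnc1, also of slow fibres, lay above it on all 6 with a difference of -0.02 (SE 0.20). WT replicate 3 had 21 muscle markers above the mark. The mean of all 28 was 7.35 there, against 9.45 to 9.73 on the Naa10-KO arrays. Rpl3l was at 4.39 on WT replicate 3 and below the mark on every WT array, which limits this comparison. The summed signals of heart markers overlapped between genotypes, at 42.97 to 49.95 in WT and 43.7 to 51.7 in Naa10-KO over 10 genes, 5 of which lay below the mark on every array. Among them Myl4 did not overlap and was lower in Naa10-KO in mean, at 11.27 against 11.86 (limma adjusted p = 0.460). The summed signal of 11 brown and beige fat markers was 84.8 to 89.3 in WT and 96.7 to 102.3 in Naa10-KO. Ucp1 had the largest difference of them, 6.17, and Cidea, Cox7a1, Cox8b and Ebf2 also did not overlap, while the means of Dio2, Otop1 and Prdm16 were lower and 0 of the 11 were called. The part of these cells in the Rpl3l value was not tested.

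The genes whose profile over the 6 arrays was nearest to that of Rpl3l, by root mean square distance after each gene was centred, were Stfa2l1 (0.26), Tpm1 (0.30), Ampd1 (0.30), Myl1 (0.32), Slc30a2 (0.38), Nr0b2 (0.38), Cst10 (0.41) and Ctxn3 (0.41). Their differences between genotypes were 2.99 to 3.72, beside 3.50 for Rpl3l. With 6 arrays in 2 groups, this distance mostly picks genes that share the genotype difference of Rpl3l. Tpm1, Ampd1 and Myl1 encode a tropomyosin, the muscle AMP deaminase and a fast myosin light chain. Stfa2l1, Slc30a2, Nr0b2 and Cst10 had means below the mark in both genotypes. None of the 4 measured genes beside Rpl3l on its chromosome was called (limma adjusted p from 0.599 to 0.828). The nearest measured genes are Ndufb10 and Rps2 on one side, at 0.24 (SE 0.13) and 0.16 (SE 0.14), and Msrb1 and Hs3st6 on the other, at -0.32 (SE 0.16) and 0.62 (SE 0.83).

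Rps4l was the one member whose Naa10-KO arrays all lay below its WT arrays. It read 10.68, 10.81 and 10.61 in WT and 9.49, 9.83 and 9.70 in Naa10-KO, so the spread within each genotype was small beside the gap. The difference of -1.02 (SE 0.16, a 2.03-fold higher level in WT) did not pass over all genes in limma (adjusted p = 0.167). It passed with a filter on low values (adjusted p = 0.0326), with low values raised to the mark (0.0235) and with trend and robust options (0.00520), and its adjusted p ranged from 0.00520 to 0.553 over all alternatives. Calls downward in those fits made up 0.0440%, 0.0980% and 0.192% of genes. Its X-linked parent Rps4x had a higher mean instead, from 14.83 ± 0.17 in WT to 15.12 ± 0.16 in Naa10-KO (SD, n = 3; difference 0.29, SE 0.17). A second Rps4x probe set with a mean of 2.20 was at -0.50 (SE 0.76). None of the measured neighbours of Rps4l was called, with Tmtc1 at 0.36 (SE 0.16), Ipo8 at 0.05 (SE 0.13), and 4732416N19Rik and 4930528G23Rik below the mark on all arrays.

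**Figure D4:**
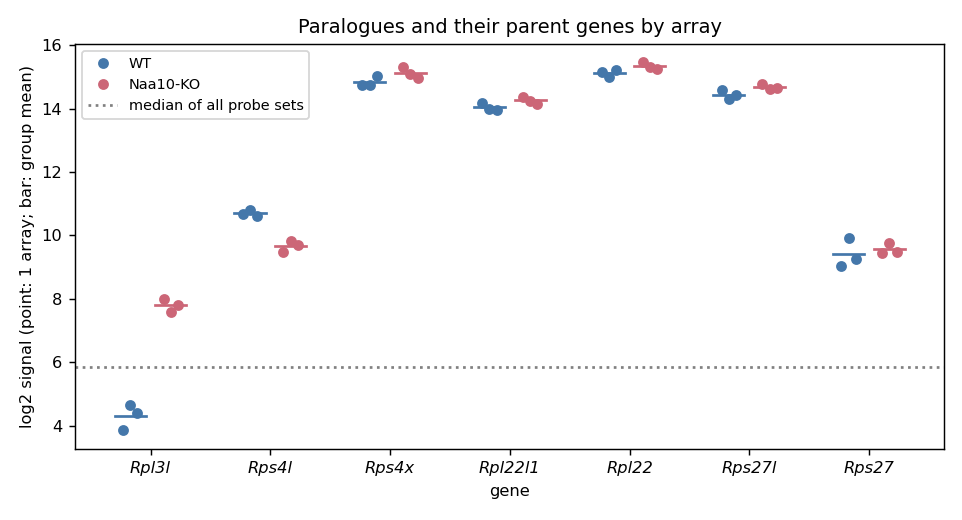
Log2 signal on each array for the 4 paralogues and the 3 parent genes that were measured; points are arrays, bars are group means, and the dotted line is the median of all probe sets, 5.86. The genotypes separate widely for Rpl3l and Rps4l and lie close together for the other genes.

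Rpl22l1 and Rps27l had differences close to the core median, and neither was called. Rpl22l1 read 14.18, 13.98 and 13.97 in WT and 14.38, 14.25 and 14.15 in Naa10-KO, and the lowest Naa10-KO array lay below the highest WT array (difference 0.21, SE 0.15, adjusted p = 0.676). Rpl22 differed by 0.22 (SE 0.14), and its arrays did not overlap. Rps27l read 14.59, 14.31 and 14.42 in WT and 14.76, 14.62 and 14.64 in Naa10-KO, which did not overlap (difference 0.23, SE 0.14, adjusted p = 0.650). Its 2 other probe sets differed by 0.16 each. Rps27 differed by 0.16 (SE 0.27), with WT replicate 2 at 9.91 above every Naa10-KO array. Without WT replicate 1 its difference was -0.02.

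The p53 pathway, which can raise Rps27l, showed 0 calls among 12 measured genes, with a median of -0.13. Cdkn1a, the cell cycle inhibitor, differed by -0.47 (SE 0.22) and Sesn1, a stress protein, by 0.38 (SE 0.18). Of the remaining genes chosen by the rule, Rpl39l differed by 0.33 (SE 0.24), Rps19bp1 by 0.17 (SE 0.16) and Rpl7l1, a nucleolar relative of Rpl7, by -0.03 (SE 0.12). Rpl7l1 had SDs of 0.02 and 0.03, the arrays of both genotypes lying within 9.41 and 9.48.

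Other genes of translation were compared with the core as a description, since no test of one list against another was run. Of 33 initiation factor genes 0 were called, 24 had higher means (72.7%) and 8 did not overlap upward (24.2%), with a median of 0.14. Over all genes 51.4% of means were higher and 10.0% did not overlap upward. Eif4a2, an RNA helicase, differed by 0.62 (SE 0.20) and Pabpc4, a poly(A) binding protein, by 0.55 (SE 0.23). Of 13 elongation and termination genes 0 were called, with a median of 0.15. Eef1a2, the form of the aminoacyl-tRNA carrier made in muscle and neurons, read 7.30, 7.07 and 7.91 in WT and 9.35, 9.86 and 9.36 in Naa10-KO. Its groups were well apart, but the difference of 2.10 (SE 0.29) did not pass (limma adjusted p = 0.139). Eif5a2 differed by 0.36 (SE 0.14).

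Of 40 ribosome biogenesis genes 0 were called, with a median of 0.17. Means were higher in 29 (72.5%, against 51.4% of all genes), and 9 did not overlap upward (22.5%, against 10.0%). Rbm28, a nucleolar factor of large subunit assembly, went against the list at -1.06 (SE 0.16, limma adjusted p = 0.167), and Emg1, a methyltransferase of small subunit RNA, differed by 0.49 (SE 0.13). Among 14 genes of RNA polymerase I, which transcribes ribosomal RNA, 0 were called and the median was 0.07, with Znrd1 at 0.75 (SE 0.22) and Taf1a at 0.81 (SE 0.30). A list of 11 genes, of mTORC1 control and Myc, had a median of -0.16 and 0 calls. It mixes activators and inhibitors, so its median gives no direction of control. Means were lower in 8 of them and higher in 3 (27.3%, against 51.4% of all genes). Myc, an activator of ribosome synthesis, differed by 0.62 (SE 0.20) and Akt1s1, an inhibitor of mTORC1, by -0.35 (SE 0.16). Mitochondrial ribosomal proteins had a median of 0.05 over 76 genes and 0 calls, with 46 means higher (60.5%, against 51.4% of all genes). Mrpl47 and Mrpl3 differed by 0.54 (SE 0.17) and 0.55 (SE 0.20). Rpsa and Fau, ribosomal proteins whose symbols fall outside the rule, differed by 0.23 (SE 0.16) and 0.22 (SE 0.16), close to the core median.

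At an unadjusted p under 0.05, limma gave 1 of the initiation genes, 1 of the elongation and termination genes, 4 of the biogenesis genes, 2 of the RNA polymerase I genes, 1 of the mTORC1 and Myc genes, 0 of the p53 genes and 3 of the mitochondrial ribosomal protein genes, in either direction. Over all genes the share in either direction was 9.20%.

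**Figure D5:**
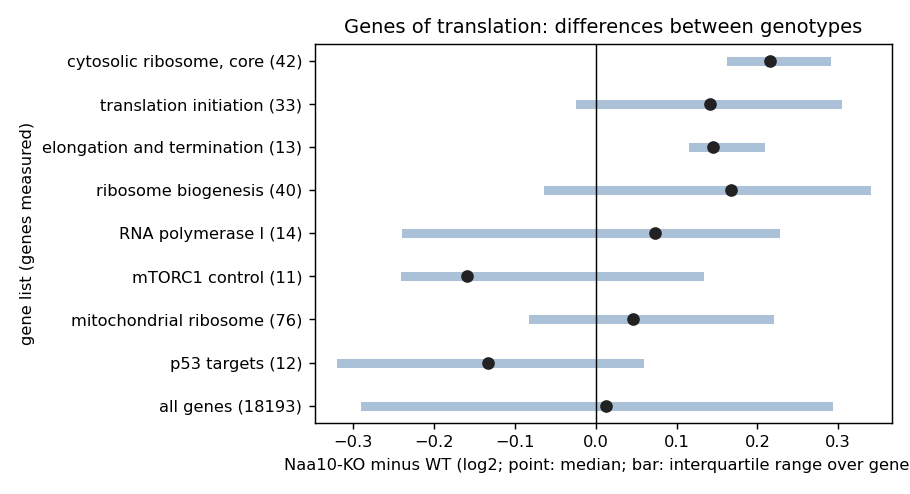
Differences between genotypes (Naa10-KO minus WT, log2) for gene lists of translation; the point is the median over the measured genes and the bar the interquartile range over genes, not an error. Of the lists drawn, the core of the cytosolic ribosome has the highest median, 0.22, and a narrow bar; all genes have a median of 0.01 and a wide one.

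For the other cells in the tissue, the summed signals of the marker lists overlapped between genotypes. Summed log2 signals were 141.4 to 145.5 in WT and 140.8 to 143.2 in Naa10-KO for 10 white adipocyte markers, 62.6 to 78.9 and 52.7 to 82.2 for 11 B cell markers, 55.1 to 60.7 and 56.8 to 61.7 for 9 T cell markers, and 91.9 to 93.3 and 91.5 to 95.1 for 9 macrophage markers. The 10 white adipocyte markers lay above the mark on every array. Among them Cidec did not overlap and was lower in Naa10-KO in mean, at 14.18 against 14.51 (limma adjusted p = 0.664). The B cell marker Pax5 did not overlap either, at 4.20 in Naa10-KO against 6.08 in WT (limma adjusted p = 0.283). Its Naa10-KO arrays all lay below the mark. The lowest and highest B cell sums lay on Naa10-KO replicates 2 and 3, where the core medians were 0.08 and 0.02.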

How the data were processed

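The authors deposited 1 log2 signal per probe set and array (45101 probe sets, 6 arrays, 1 per mouse). Which software made them is not stated in the labels or file headers. On the linear scale the mean after trimming 2% at each end was 500.0 on every array, so each array had been scaled to 1 level, and log2 values were used as deposited. No detection calls were used, and the number of arrays limits the precision. Probe sets were named through GEO's platform annotation of 2016: 34945 had 1 gene, 932 several, 9160 none, and 64 were controls. For each of 18193 genes, the probe set of highest mean signal was used. Genotype was fitted with limma 3.58.1 (lmFit, eBayes, 2-sided) in R 4.3.3, with 1.39 prior degrees of freedom. Members and lists were chosen with earlier results of these data known. Genes named were the paralogues and parents, called members, the 6 members of smallest p in each direction (only 4 were lower), small role lists, the 8 genes most like Rpl3l, and called genes and the 2 of smallest p of each list; others were chosen after their values were seen. Replicate numbers name different animals, and deviations of same-numbered arrays correlated at -0.00671, -0.00574 and -0.0307, so no block was used. Tested on simulated data of 18193 genes with 200 changed, the fit recovered 11.8% of changes of 1 log2 unit and 63.3% at 3, with 6.25 false calls per run. The mean of 14 that marks bright probe sets was chosen after the values were seen. Of the 49 probe sets used for the members, 15 end in x_at or s_at, whose probes can match related transcripts, processed pseudogenes included.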

Additional observations from a re-analysis of the deposited data

How the results depend on the processing

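The median difference of the 49 members, 0.22 in the main fit, stayed positive in all 19 alternatives, between 0.13 and 0.27. It was lowest, at 0.13, after quantile normalization, so its size depended on the scaling of the arrays. Each move was under 0.10, the SD between array medians of a genotype. That SD measures spread between arrays and not dependence on processing. The count of members higher, 1, became 0 with the mean of all probe sets and with the replicate number as a block. It was also 0 without each array in turn (0 to 0). Leaving out the paralogues gave 0 by construction, since they include Rpl3l. Members lower, 0, became 1 (Rps4l) with the filter on low values, the floor at the mark and trend and robust options. The Rpl3l difference was 3.50 but not called with the mean of all probe sets (adjusted p = 0.0541), in the replicate block fit (0.312) and with each probe set tested on its own (0.0756), and it was 3.28 to 3.68 without 1 array; 8 of its 17 alternatives kept the call. Rps4l was -1.02 and called with the filter (0.0326), the floor (0.0235) and trend and robust options (0.00520). Rpl22l1 and Rps27l were not called in any of 17 alternatives each. Among named members, signs also turned for these, and the cause was not tested: after quantile normalization Rpl19 (-0.030) and Rpl41 (-0.036), with the mean of all probe sets Rps4x (-0.10), without x_at and s_at probe sets Rpl41 (-0.58) and Rps20 (-0.21), and with array weights Rpl27a (0.033). Without 1 array, Rpl27a ranged from -0.071 to 0.064, Rps27 from -0.025 (without WT replicate 1) to 0.42, and Rpl39 from -0.83 to 0.35 (without Naa10-KO replicate 1). The replicate block changed no other call. Alternatives chosen after seeing the data gave medians of 0.21 over members with a mean of at least 14, 0.16 with arrays centred on other genes of that signal, and 0.24 over shared probe sets.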
